A study of Mus musculus with 6 samples.

Results

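The genes described here are 9 components of the perineuronal net and the related diffuse matrix of the brain, chosen by name, with earlier results of these data known: the lecticans Acan, Bcan, Ncan and Vcan, the link proteins Hapln1 and Hapln4, the tenascins Tnr and Tnc, and the receptor phosphatase Ptprz1. They were 9 of 52550 genes in the count table, and 9 of the 17621 genes that reached 10 counts in 3 or more libraries. In the table of splicing events, 21 of 40961 events lay in these genes.

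Hippocampal RNA was sequenced from 6 libraries, 3 of control mice and 3 of mice with a knockdown of L-DL (L-DL KD), the long isoform of the RNA-binding protein hnRNP D-like. Male wild-type C57BL/6 J mice were injected in CA1 of both hippocampi at 8 weeks of age with an adeno-associated virus carrying either control shRNA or 4 tandem L-DL shRNAs under H1 promoters, and the control virus was given at the higher titre. The zsGreen reporter of the L-DL virus was driven by the CamkIIα promoter for neurons, whereas the H1 promoter is not restricted to a cell type. The labels call the groups wild type and hnRNP DL KD, and one label field writes the second as hnRNP DL-/-; the age at which tissue was taken is not given in the sources used here.

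Perineuronal nets are lattices of matrix around the cell body and proximal dendrites of some neurons, above all parvalbumin interneurons and, in the hippocampus, CA2 pyramidal cells. Lecticans are chondroitin sulfate proteoglycans that bind hyaluronan at one end, where link proteins hold the bond, and tenascins at the other, so that tenascin-R cross-links them into a net. The matrix restrains plasticity and is remodelled after injury, when glial cells deposit part of it.

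Counted reads ran from 16052529 to 16995425 in the control libraries and from 16525467 to 17913064 in the L-DL KD libraries. Hnrnpdl itself, the gene of the knockdown target, was at 176, 184 and 171 CPM (counts scaled to a common library total) in control and at 217, 150 and 173 CPM in L-DL KD. These ranges overlapped, with a log2 fold change of 0.03 ± 0.12 (SE) and an adjusted p of 0.898 in edgeR's quasi-likelihood test. Gene counts do not separate the long isoform from the others, so this value does not measure the isoform that was targeted, and the second group below is the libraries labelled L-DL KD. The labels do not say whether the libraries came from separate animals, so p-values measure the spread between these libraries.

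The segments that differ between transcript forms of these genes are shown first for Ptprz1, because its microexon had the smallest unadjusted p of the splicing events in these genes. Sequences are from GENCODE M21 transcripts on GRCm38, plus strand for Ptprz1, with the alternative segment in capitals and the joined neighbouring exons in lower case. Exon 16 of Ptprz1-201, a coding microexon of 21 nt at chr6:23024714-23024734, keeps the reading frame. The long part of exon 12, 2547 nt at chr6:23000200-23002746, is shown by its first and last 30 nt, at the inner splice site and at the junction to exon 13. It is a coding stretch that carries chondroitin sulfate attachment sites in the full-length receptor and in its secreted form, phosphacan, and that the short receptor lacks.
Ptprz1 exon 16 included: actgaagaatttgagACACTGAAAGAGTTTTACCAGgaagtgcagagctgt
Ptprz1 exon 16 skipped: actgaagaatttgaggaagtgcagagctgt
Ptprz1 exon 12 at the inner splice site: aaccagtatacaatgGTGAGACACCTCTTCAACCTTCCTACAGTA
Ptprz1 exon 12, long end joined to exon 13: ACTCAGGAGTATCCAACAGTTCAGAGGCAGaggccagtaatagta
Ptprz1 exon 12, short end joined to exon 13: aaccagtatacaatgaggccagtaatagta

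Of the 9 genes, 4 were higher in L-DL KD (Tnc, Acan, Vcan and Tnr), 3 were lower (Hapln1, Ptprz1 and Bcan) and 2 did not pass the threshold (Hapln4 and Ncan). A gene passed when its p from edgeR's quasi-likelihood test, adjusted by Benjamini-Hochberg over all 17621 genes, was below 0.05. Across all genes tested, 30.5% passed, 15.6% as higher and 15.0% as lower. The 3 control values and the 3 L-DL KD values did not overlap in 7 of the 9 genes, against 47.2% of all genes. With 3 libraries against 3, an exact two-sided permutation test of a single gene cannot give a p below 0.1. Levels below are CPM scaled by TMM (trimmed mean of M values), with the mean ± SD of 3 libraries, and a log2 fold change is L-DL KD against control with its standard error (SE).

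**Figure D1:**
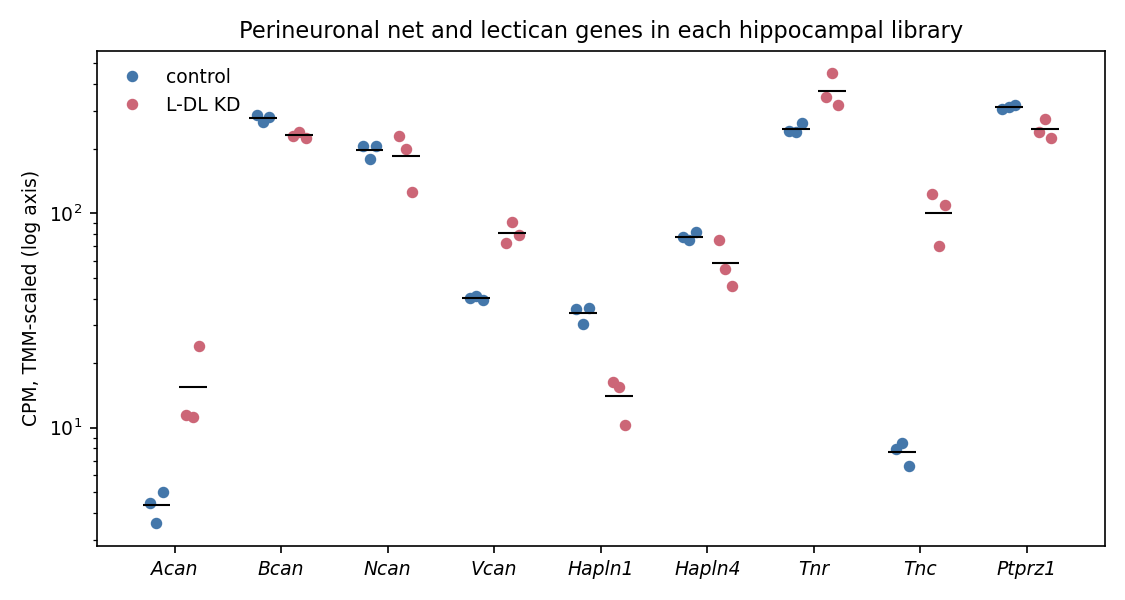
Level of each gene in CPM (log axis) in the 3 control and 3 L-DL KD libraries, with 1 point per library and a bar at the group mean. Tnc moved from 6.60 to 8.47 CPM in control to 70.2 to 122 CPM in L-DL KD, whereas the values of Ncan and Hapln4 overlapped between groups.

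Tenascin-C (Tnc, ENSMUSG00000028364, chr4:63959785-64047015, minus strand), a glycoprotein of the developing and injured brain, had the largest change among the 9 genes. It was at 7.95, 8.47 and 6.60 CPM in control and at 122, 70.2 and 109 CPM in L-DL KD. Every L-DL KD library lay far above every control library, although the second was lower than the other two. The mean went from 7.68 ± 0.964 to 101 ± 27.2 CPM, 13.1-fold higher, with a log2 fold change of 3.71 ± 0.22 and an adjusted p of 8.4e-05. The rise rested on 104 to 144 counts per control library and 1252 to 2223 counts per L-DL KD library, and was the 30th largest of the 17621 genes. On the opposite strand, 8030451A03Rik shares 176 nt, or 2.26%, of the annotated Tnc exon sequence, and reads of the pair there cannot be told apart because the strand setting of the counting is not given in the sources used here.

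Tenascin-R (Tnr, ENSMUSG00000015829, chr1:159523769-159931729, plus strand), made mainly by oligodendrocyte lineage cells and some neurons, rose far less. It was at 242, 239 and 262 CPM in control and at 348, 449 and 321 CPM in L-DL KD. The groups did not overlap, and the L-DL KD libraries were more spread out. The mean rose from 248 ± 12.3 to 373 ± 67.6 CPM, 1.5-fold, with a log2 fold change of 0.59 ± 0.12 and an adjusted p of 0.00885. The antisense gene Gm38039 shares 443 nt, or 3.44%, of the Tnr exon sequence.

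Divided by exon length, Tnc made up 5.15%, 5.54% and 4.01% of the summed level of both tenascins in control and 36.8%, 20.6% and 36.1% in L-DL KD. The share was thus 4.90% ± 0.796 in control and 31.2% ± 9.18 in L-DL KD, with no overlap between groups.

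Among the lecticans, aggrecan (Acan, ENSMUSG00000030607, chr7:79053483-79115099, plus strand), the lectican most closely tied to nets, was the least abundant and rose most. It was at 4.44, 3.59 and 5.02 CPM in control and at 11.5, 11.2 and 24.0 CPM in L-DL KD. The groups did not overlap, and the third L-DL KD library was more than the sum of the other two. The mean went from 4.35 ± 0.718 to 15.5 ± 7.34 CPM, 3.57-fold higher, with a log2 fold change of 1.84 ± 0.32 and an adjusted p of 0.00439. Counts were 61 to 79 per control library and 199 to 403 per L-DL KD library. Leaving out each library in turn, the log2 fold change ran from 1.38 to 2.04 and the adjusted p stayed at or below 0.0233.

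Versican (Vcan, ENSMUSG00000021614, chr13:89655312-89742509, minus strand), a lectican of white matter, oligodendrocyte precursors and the vessel wall, was at 40.2, 40.9 and 39.4 CPM in control and at 72.9, 90.7 and 78.8 CPM in L-DL KD. The control libraries were nearly equal, and all 3 L-DL KD libraries were above them. The mean rose from 40.2 ± 0.728 to 80.8 ± 9.03 CPM, 2.01-fold, with a log2 fold change of 1.01 ± 0.09 and an adjusted p of 0.000289.

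Brevican (Bcan, ENSMUSG00000004892, chr3:87987531-88000230, minus strand), a lectican of astrocytes and synapses, was at 288, 266 and 281 CPM in control and at 230, 240 and 224 CPM in L-DL KD. The groups did not overlap. The mean fell from 278 ± 11.5 to 231 ± 8.0 CPM, with a log2 fold change of -0.27 ± 0.06 and an adjusted p of 0.0164. The call was lost without control 1 (adjusted p 0.0702) or control 3 (adjusted p 0.0601), at log2 fold changes of -0.24 and -0.26.

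Neurocan (Ncan, ENSMUSG00000002341, chr8:70093085-70120873, minus strand), abundant in the young brain and made by neurons and astrocytes, did not pass the threshold. It was at 205, 179 and 207 CPM in control and at 230, 199 and 126 CPM in L-DL KD. The first L-DL KD library was above every control library and the third below every one. The log2 fold change was -0.09 ± 0.19, with a 95% interval from -0.47 to 0.29 and an adjusted p of 0.769. Without L-DL KD 3 it was 0.13, with an adjusted p of 0.372.

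The link proteins, which fasten lecticans to hyaluronan, were both at lower mean levels in L-DL KD, and 1 of them passed the threshold. Hapln1 (ENSMUSG00000021613, chr13:89539796-89611652, plus strand) was at 35.7, 30.4 and 36.1 CPM in control and at 16.3, 15.5 and 10.3 CPM in L-DL KD. The highest L-DL KD value was well below the lowest control value. The mean fell from 34.1 ± 3.23 to 14 ± 3.30 CPM, 2.43-fold lower, with a log2 fold change of -1.28 ± 0.18 and an adjusted p of 0.00162. It ranked 359th of the 17621 genes tested from the most negative log2 fold change.

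Hapln4 (ENSMUSG00000007594, chr8:70083457-70090862, plus strand), a link protein that partners with brevican at inhibitory synapses, was at 77.3, 74.7 and 81.3 CPM in control and at 75.2, 54.9 and 45.5 CPM in L-DL KD. The first L-DL KD library lay within the control range and the other two below it. The log2 fold change was -0.41 ± 0.16, with an adjusted p of 0.0934. The call depended on the setting: the adjusted p was 0.0424 in DESeq2, 0.0396 without the filter on low counts and 0.00105 without L-DL KD 1, at a log2 fold change of -0.63.

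Ptprz1 (ENSMUSG00000068748, chr6:22875502-23052916, plus strand), a receptor phosphatase of glia that itself carries chondroitin sulfate and binds tenascins, was at 306, 312 and 320 CPM in control and at 239, 274 and 223 CPM in L-DL KD. The groups did not overlap. The mean fell from 313 ± 7.01 to 246 ± 25.9 CPM, with a log2 fold change of -0.35 ± 0.08 and an adjusted p of 0.0160. The call was lost without control 2 (adjusted p 0.0542) or control 3 (adjusted p 0.0614), at log2 fold changes of -0.35 and -0.34.

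To compare levels between genes, CPM were divided by the length of all annotated exons of a gene in kb. In control, Bcan led at 68.5 ± 2.84 CPM per kb, followed by Ncan at 27.3, Ptprz1 at 22.0, Hapln4 at 19.8, Tnr at 19.3, Hapln1 at 5.77, Vcan at 2.78, Tnc at 0.988 and Acan at 0.582 CPM per kb. Of these neighbours, only Hapln4 and Tnr overlapped over the 3 libraries. In L-DL KD, Bcan still led at 56.9 ± 1.97 CPM per kb. Tnr at 29.0, Ncan at 25.7, Ptprz1 at 17.2, Hapln4 at 14.9 and Tnc at 13 CPM per kb followed, each overlapping the next. Vcan at 5.59 CPM per kb stood apart from its neighbours, and Hapln1 at 2.38 and Acan at 2.08 CPM per kb overlapped.

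**Figure D2:**
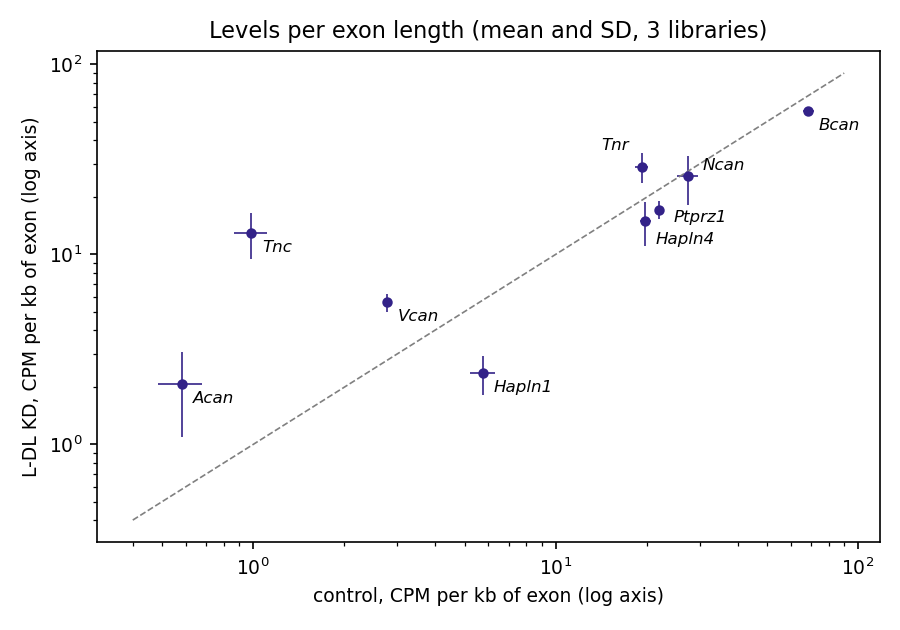
Mean level in CPM per kb of exon in control (horizontal, log axis) and L-DL KD (vertical, log axis), with bars of 1 SD over 3 libraries and a dashed line of equal levels. Tnc, Acan and Vcan lie above the line on the low side of the range, Hapln1 lies below it, and Bcan is the highest gene in both groups.

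Summed per length, the 4 lecticans were at 99.2 ± 4.98 CPM per kb in control and at 90.3 ± 7.81 CPM per kb in L-DL KD, and the groups overlapped. Within that sum the share of Vcan was 2.81% ± 0.189 in control and 6.22% ± 0.793 in L-DL KD, and the share of Acan was 0.585% ± 0.0748 and 2.38% ± 1.36. Bcan held 69.1% ± 0.811 and 63.2% ± 4.2 of the sum. The 2 lecticans that rose were therefore the 2 least abundant ones in control. For the link proteins, Hapln1 was 22.5% ± 1.14 of the pair in control and 13.8% ± 1.76 in L-DL KD, with no overlap.

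In the genome each lectican gene has a link protein gene near it, and the log2 fold changes of the neighbours are set side by side here. Vcan and Hapln1, on opposite strands of chromosome 13 with 43.7 kb between them, had log2 fold changes of 1.01 and -1.28. Ncan and Hapln4 on chromosome 8 are 2222 nt apart and had log2 fold changes of -0.09 and -0.41, neither past the threshold. Beside Acan on chromosome 7, with 2 nt between the annotated ends, Hapln3 had a log2 fold change of 1.20 ± 0.56 and an adjusted p of 0.145. Beside Bcan on chromosome 3, at 21.5 kb, Hapln2 had a log2 fold change of 0.05 ± 0.10 and an adjusted p of 0.771.

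Splicing was read as the percent spliced in, written PSI and given from 0 to 1: the share of transcripts that include a segment, from reads across its splice junctions, corrected for the number of positions each form offers. Of the 21 events in these genes, 13 had enough junction reads to test, in 7 genes, and Acan and Hapln1 had no listed event. None of the 13 passed an adjusted p of 0.05 in edgeR's quasi-likelihood test over 18829 events, and 2 passed an unadjusted p of 0.05, both in Ptprz1. Over all events tested, 0.255% passed the adjusted and 13.3% the unadjusted threshold. PSI did not overlap between groups in 3 of the 13 events, against 18.4% of all events. In 13 of the 21 events PSI was above 0.95 in both groups. The splicing table does not number its libraries, so PSI values are given in the table's order.

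The Ptprz1 microexon, exon 16, had PSI values of 0.613, 0.707 and 0.602 in control and 0.245, 0.343 and 0.363 in L-DL KD. The lowest control value was well above the highest L-DL KD value. The mean went from 0.641 ± 0.0578 to 0.317 ± 0.0632, a difference of -0.324, on 119 to 148 junction counts per library. Summed over libraries, 278 reads included and 137 skipped the exon in control, against 134 and 252 in L-DL KD. The unadjusted p in edgeR's quasi-likelihood test was 0.000557 and the adjusted p 0.0802, above the threshold, and the exact permutation p was 0.1, the smallest possible. Over the alternatives run, the difference stayed between -0.347 and -0.288 and the adjusted p between 0.0738 and 0.301. A difference at least as large in either direction was seen in 0.451% of the 18829 events tested.

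The long part of Ptprz1 exon 12 had PSI values of 0.564, 0.607 and 0.5 in control and 0.517, 0.457 and 0.442 in L-DL KD. The first L-DL KD value lay above the lowest control value, so the groups overlapped. The mean was 0.557 ± 0.0538 in control and 0.472 ± 0.0395 in L-DL KD, and the adjusted p was 0.601. Both the form with the chondroitin sulfate stretch and the form without it were thus read in every library.

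**Figure D3:**
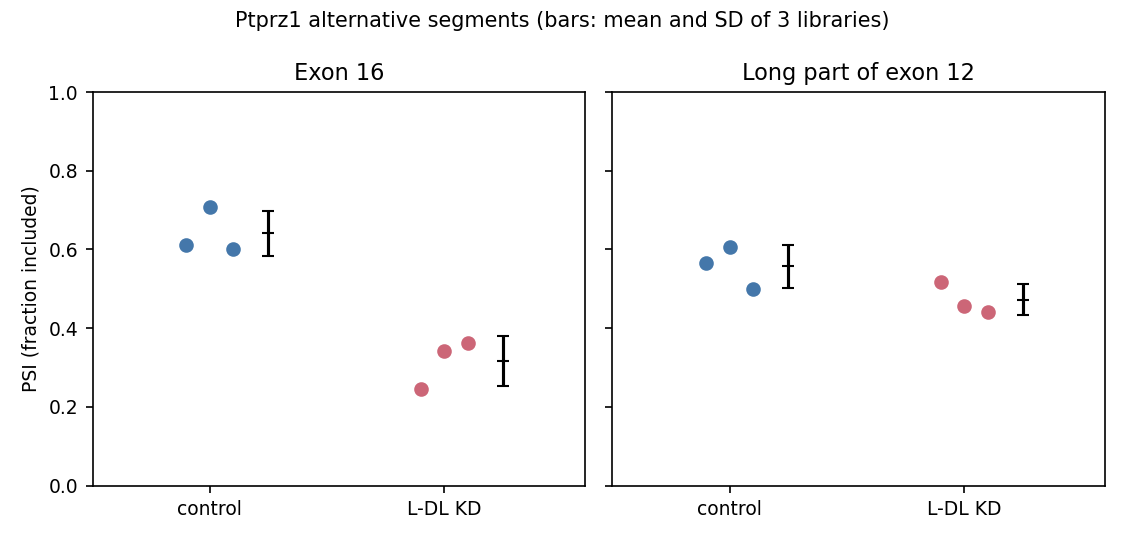
PSI (fraction of transcripts that include the segment, 0 to 1) of Ptprz1 exon 16 on the left and of the long part of exon 12 on the right, with 1 point per library and the mean and SD of 3 libraries beside them. Exon 16 lies between 0.602 and 0.707 in control and between 0.245 and 0.363 in L-DL KD, and the values of exon 12 overlap.

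The event listed for Ptprz1 exon 29 (136 nt) has exons 27 and 30 as its flanks, so its skipping reads join exon 27 to exon 30 and leave out exon 28 (143 nt) as well, 279 nt of coding sequence in all, which keeps the frame. Such reads were 0 of 705 in control, which allows a share of up to 0.426%, and 7 of 594 in L-DL KD, or 1.18%. All 7 came from 2 libraries, and the event met the filter on skipping reads only through them. The PSI was 1 in control and 0.978 ± 0.0197 in L-DL KD, with an unadjusted p of 0.0252 and an adjusted p of 0.314 in edgeR's quasi-likelihood test. The other 4 Ptprz1 exons listed, exons 13, 18, 26 and 28, were included at a PSI of 0.988 or more in both group means and had too few skipping reads to test. The event of exon 28 counts only reads that join exon 27 to exon 29 as skipping, so the 7 reads above are not in it. Limits from a count of 0 cover counting error only.

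Versican has 2 very long exons, exon 7 (2880 nt, chr13:89702918-89705797) and exon 8 (5217 nt, chr13:89688285-89693501) of Vcan-203, each coding for a domain to which chondroitin sulfate chains attach. Transcripts with both are called V0, with exon 8 alone V1, with exon 7 alone V2, the main form of the adult brain, and with neither V3. The table lists the exons as mutually exclusive, and there the form with exon 7 had a PSI of 0.717 ± 0.0965 in control and 0.712 ± 0.142 in L-DL KD (adjusted p 0.978). The other Vcan events and the junctions below were looked at after their values were known.

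Junction by junction, reads from exon 6 to exon 7 numbered 10, 12 and 25 in control and 27, 63 and 31 in L-DL KD. Reads from exon 7 to exon 9, which mark the form with exon 7 alone, numbered 13, 12 and 14 in control and 27, 28 and 13 in L-DL KD. Reads from exon 8 to exon 9 numbered 5, 14 and 17 in control and 24, 7 and 29 in L-DL KD. The first of these junctions had no overlap between groups, and the others overlapped. These counts are not scaled to the level of Vcan, which was itself 2.01-fold higher in L-DL KD.

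The junction from exon 6 to exon 8, which marks the form with exon 8 alone, had 0, 0 and 0 reads in control and 1, 7 and 2 in L-DL KD. The PSI of exon 7 in that event was 1 in all control libraries and 0.938, 0.818 and 0.900 in L-DL KD. Skipping reads were 0 of 48 in control, which allows a share of up to 6.25%, and 10 of 139, or 7.19%, in L-DL KD, and the adjusted p was 0.399. The event met the filter on skipping reads only through L-DL KD. Exon 8 had a PSI of 0.308 ± 0.127 in control and 0.337 ± 0.228 in L-DL KD (adjusted p 0.992). Of the reads that enter exon 9, a share of 0.455 ± 0.154 came from exon 8 in control and 0.454 ± 0.246 in L-DL KD.

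**Figure D4:**
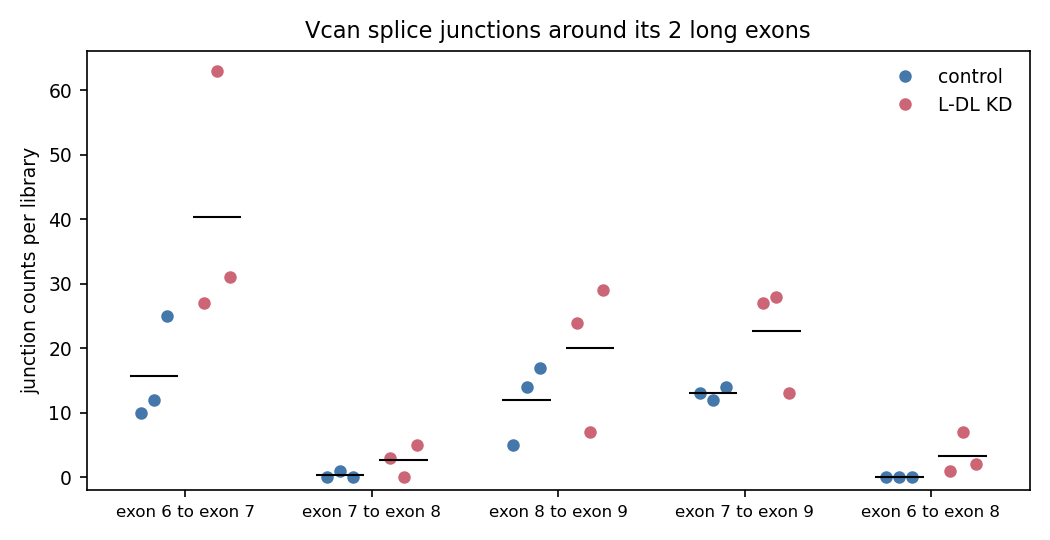
Junction reads per library across the splice junctions around the long exons 7 and 8 of Vcan, for 3 control and 3 L-DL KD libraries, with a bar at the group mean. Reads from exon 6 to exon 7 are all higher in L-DL KD, and reads from exon 6 to exon 8 appear at 1 to 7 per library in L-DL KD and at 0 in control. The counts are not scaled to the level of Vcan, which was itself 2.01-fold higher in L-DL KD.

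The alternatively spliced exons of Tnc code for fibronectin type III repeats. A pair of them, exons 14 and 15 of Tnc-203, have the same length of 273 nt, and 136 of the 273 bases, 49.8%, are identical when they are laid side by side without gaps. They are shown because the largest PSI difference among the tested events of these genes was that of exon 14; its values were looked at after they were known. Exon 14 lies at chr4:63984460-63984732 and exon 15, which is exon 14 of Tnc-201, at chr4:63982651-63982923, both on the minus strand and written here 5′ to 3′ as transcribed.
Tnc exon 14 of Tnc-203: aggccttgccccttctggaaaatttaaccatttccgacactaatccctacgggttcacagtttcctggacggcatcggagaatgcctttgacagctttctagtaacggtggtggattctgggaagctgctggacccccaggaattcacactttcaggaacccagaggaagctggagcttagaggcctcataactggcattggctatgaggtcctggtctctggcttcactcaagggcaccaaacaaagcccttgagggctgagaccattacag
Tnc exon 14 of Tnc-201: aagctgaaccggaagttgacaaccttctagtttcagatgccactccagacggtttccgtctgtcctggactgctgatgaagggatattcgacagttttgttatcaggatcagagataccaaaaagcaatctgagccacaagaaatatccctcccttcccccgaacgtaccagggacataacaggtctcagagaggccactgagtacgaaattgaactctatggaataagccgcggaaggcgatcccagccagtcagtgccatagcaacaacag

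Tnc was so low in control that its splicing there was barely covered. Exon 14 of Tnc-203 had PSI values of 0.583, 0.652 and 0.630 in L-DL KD, from 175 including and 55 skipping reads. In control it had 8 including and 0 skipping reads, which allows a skipping share of up to 37.5% of reads. The adjusted p was 0.432, so a difference was not detectable at this depth. Exon 14 of Tnc-201 was read in an event whose skipping form joins exon 9 to exon 15 of Tnc-201 and so leaves out the exons between them too. It had PSI values of 0.832, 0.837 and 0.916 in L-DL KD, and 1 and 0.6 in the 2 control libraries with reads (adjusted p 0.861, in a fit that keeps the third control library with no reads).

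Among the events with enough reads of both forms to test, the best covered one of each of the other genes did not pass the threshold, and mean inclusion was above 0.92. Bcan exon 12 (145 nt) was at a PSI of 0.979 ± 0.0184 in control and 0.971 ± 0.00818 in L-DL KD, with an adjusted p of 0.810 on 606 to 711 counts per library. Bcan exon 9 was at 0.993 in both groups (adjusted p 0.999). Ncan exon 2 (80 nt) was at 0.986 and 0.983 (adjusted p 0.992), and Tnr exon 3 (477 nt) at 0.967 and 0.977 (adjusted p 0.990). Tnr exon 4 (264 nt) had more junction counts but only 3 skipping reads, all in control, and was not tested, with a PSI of 0.977 in control and 1 in L-DL KD. Hapln4 exon 2 (121 nt), in which skipping shifts the frame, was at 0.924 ± 0.0363 and 0.961 ± 0.0674 (adjusted p 0.755). The 8 events not tested, 4 of them in Ptprz1, 2 in Tnr and 1 each in Bcan and Tnc, had too few skipping reads.

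The lists of further matrix genes below were drawn up with earlier results of these data known, and each is set beside the median log2 fold change of all genes tested, 0.006. Over all genes tested, 15.6% were called higher and 15.0% lower, and a count near these shares says little about its list. The median over the 9 net and lectican genes was -0.087. Of 13 genes of hyaluronan synthesis, breakdown and binding, 5 rose, 1 fell and 7 did not pass, with a median log2 fold change of 0.255. Has2, a hyaluronan synthase, went from 1.05 ± 0.482 to 2.74 ± 0.401 CPM (log2 fold change 1.38, adjusted p 0.0262), and the synthase Has3 from 5.57 ± 0.792 to 3.22 ± 0.207 CPM (-0.79, adjusted p 0.0177). The hyaluronan receptor Cd44 went from 41.0 ± 7.44 to 88.6 ± 30.7 CPM (1.11, adjusted p 0.00954), and Cemip, which promotes hyaluronan breakdown, from 39.9 ± 1.88 to 67 ± 12.4 CPM (0.75, adjusted p 0.00475). The other two genes that rose, named after their values were seen, were the hyaluronidases Hyal1 (0.74, adjusted p 0.0285) and Hyal2 (0.50, adjusted p 0.0249). The 5 rises were thus those of a synthase, a receptor and 3 genes of breakdown. The count of genes that rose was 2 without control 2 and 3 without control 3 or L-DL KD 2, and the fall of Has3 was lost without control 1, control 3 or L-DL KD 3.

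For the chondroitin sulfate chains that lecticans and Ptprz1 carry, 7 of 21 genes of chain synthesis rose, 3 fell and 11 did not pass, with a median of 0.023. Chst3, which sulfates chondroitin at carbon 6, went from 7.30 ± 1.90 to 19.1 ± 2.92 CPM (log2 fold change 1.38, adjusted p 0.00207). Chst14 (1.07, adjusted p 0.00716) and Dse (0.79, adjusted p 0.0145), both of dermatan sulfate synthesis, rose as well. The 3 that fell act on the linker by which a chain is started: B3gat3 (-0.92, adjusted p 0.00153), Fam20b (-0.72, adjusted p 0.00119) and Xylt1 (-0.43, adjusted p 0.00784). The count that rose was 4 without control 1 and 3 without control 2, and the count that fell was 5 without L-DL KD 1.

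Among 17 other proteoglycans and net components, 7 rose, 5 fell and 5 did not pass, with a median of -0.079. The small proteoglycan Bgn went from 30.3 ± 3.94 to 171 ± 38.1 CPM (log2 fold change 2.50, adjusted p 0.000116), Fmod, another of that family, from 9.85 ± 2.89 to 35.8 ± 21.1 CPM (1.86, adjusted p 0.00966), and Sparc, a matrix glycoprotein, from 400 ± 6.18 to 1533 ± 143 CPM (1.94, adjusted p 6.4e-05). The neuronal proteoglycans Spock1 (-1.64, adjusted p 0.000293) and Cspg5 (-0.59, adjusted p 0.000864) and the synaptic pentraxin Nptx2 (-0.94, adjusted p 0.0104) fell.

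Of 18 ligands and receptors of the net, 4 rose, 3 fell and 11 did not pass, with a median of -0.001. These counts and the median lie near those of all genes tested. The integrin subunits Itga8 (log2 fold change 1.31, adjusted p 0.000143) and Itga9 (1.04, adjusted p 0.000657), which form tenascin-C receptors, rose with the net-bound guidance cue Sema3a (0.91, adjusted p 0.0132). Its receptor subunit Plxna1 (-0.75, adjusted p 0.00193) and the Nogo receptor relatives Rtn4rl2 (-0.76, adjusted p 0.00800) and Rtn4rl1 (-0.33, adjusted p 0.0340) fell, and 5 genes of this list fell without L-DL KD 1. Of 19 matrix proteases and inhibitors, 8 rose, 1 fell and 10 did not pass, with a median of 0.401, led by the gelatinase Mmp2 (1.94, adjusted p 0.000179), the protease inhibitor Timp1 (1.86, adjusted p 0.00503) and the lysosomal protease Ctss (0.74, adjusted p 0.00434). The membrane protease Mmp24 fell (-1.02, adjusted p 0.00567).

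**Figure D5:**
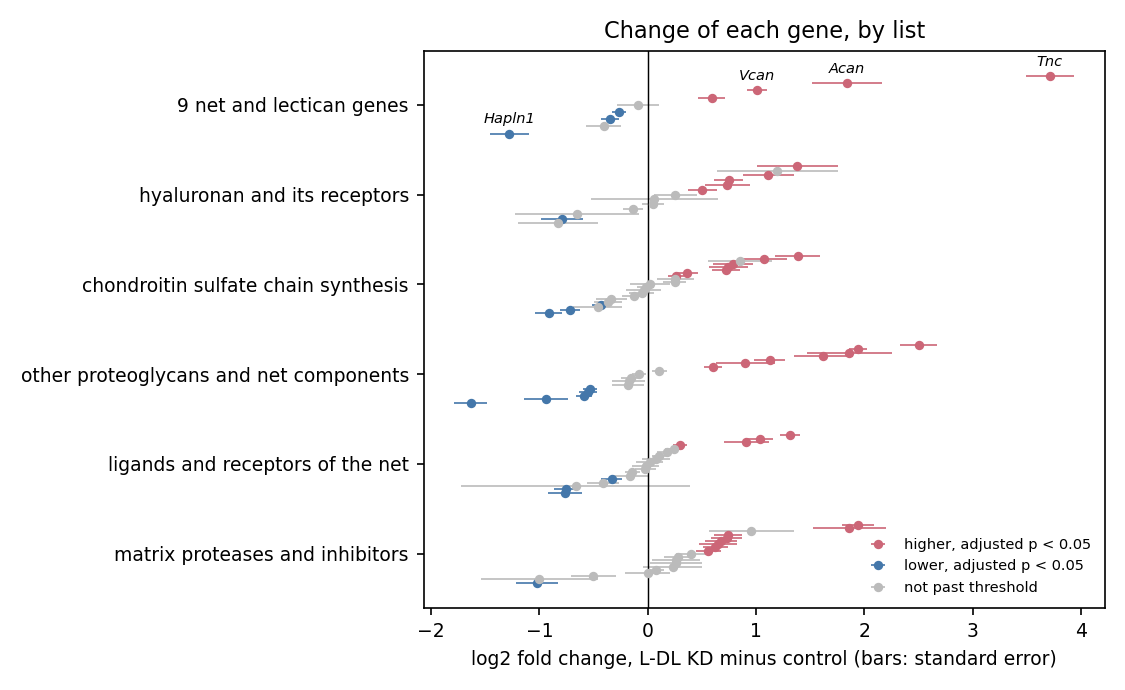
Log2 fold change of every tested gene of the 6 lists, L-DL KD against control, with bars of 1 SE and colours for higher, lower or not past an adjusted p of 0.05. Tnc at 3.71 is the largest change in the plot, and genes that rose and genes that fell occur in each list.

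Markers of several cell types moved with these genes, and their part in the results was not tested. In bulk tissue, fewer cells of a type and less RNA per cell cannot be told apart. Over all genes tested, 15.6% were called higher and 15.0% lower. No gene of the marker lists was at 0 in every library. The CA2 markers Pcp4 (0 to 7 counts per library) and Avpr1b (3 to 13 counts) were too low to test. Of 10 parvalbumin interneuron markers, 8 fell, and the summed level of the list was 754 to 823 CPM in control and 304 to 479 CPM in L-DL KD. The 2 that did not pass had positive log2 fold changes, Pvalb itself (0.28, adjusted p 0.238) and Cox6a2 (0.66, adjusted p 0.0655). Most of the sum came from Gad1 (275 CPM in control), Kcnc1 (188 CPM) and Gad2 (128 CPM), which are not limited to parvalbumin cells. The sum therefore does not measure these cells alone. Of 6 tested CA2 markers 2 fell, with sums of 165 to 197 and 132 to 172 CPM, and of 10 general neuronal markers 9 fell and 1 rose, with sums of 9530 to 10110 and 5825 to 6755 CPM.

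Glial lists, beside the genes that glia make, split. Of 12 astrocyte markers, 2 rose and 4 fell, with sums of 10020 to 10190 CPM in control and 7772 to 9553 CPM in L-DL KD. Of 8 oligodendrocyte precursor markers 7 rose, from 453 to 465 CPM to 565 to 715 CPM, and of 8 mature oligodendrocyte markers 1 rose and 1 fell. All 10 microglial markers rose, from 1352 to 1691 CPM to 2840 to 3656 CPM. Beside the rises of Bgn and Fmod, 6 of 8 meningeal fibroblast markers rose, with sums of 123 to 342 CPM in control and 206 to 573 CPM in L-DL KD that overlapped. The largest part of these sums was Igf2, which did not pass, at 144 ± 97.1 CPM in control and 183 ± 111 CPM in L-DL KD. Dcn and Lum, among the markers that rose, are also in the list of other proteoglycans, as is the precursor marker Cspg4. Of 8 endothelial markers, 3 rose. None of 8 choroid plexus markers passed the threshold, and their sums, 810 to 7102 and 206 to 7856 CPM, varied widely within both groups.

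Over the 6 libraries, the gene most like each of the 9 among 12719 genes with a mean of at least 5 CPM was found by Pearson's r of log2 CPM. All 6 points share the split into 2 groups, so high values are common, and these are descriptions. For Tnr it was Gpr17, a marker of oligodendrocyte precursors about to mature (r = 0.998), for Vcan it was Stmn4 (r = 0.999), and for Tnc it was Htra3, a secreted serine protease (r = 0.999). For Hapln1 it was Adgrb2 (r = 0.999), for Hapln4 the synaptic gene Cplx2 (r = 0.998) and for Acan C1galt1 (r = 0.998). Bcan was closest to Pkd2l2 (r = 0.997), Ncan to the lipid transporter Abca3 (r = 0.995) and Ptprz1 to Lrrn3 (r = 0.998).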

How the data were processed

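Total RNA was extracted with Trizol and libraries were made with a NEBNext Ultra kit. The authors deposited raw read counts per gene for the 6 libraries, and a table of splicing events (unit other) with inclusion and skipping junction counts per library and form lengths. The submitters' processing notes name Bowtie 1.1.2, HISAT2 2.1.0, HTSeq 0.6.1 and the build mm10 without their roles, and the strand setting is not given in the sources used here. The splicing table numbers its groups, and its first group was read as L-DL KD because the methods define a PSI change as L-DL KD minus control. Its p-values and differences, the authors' own comparison, were not used.

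Samples were grouped by their titles, and no per-sample column was left out. The 9 genes and all lists were chosen with earlier results of these data known. Genes that reached 10 counts in 3 or more libraries were fitted with edgeR 4.0.16 (R 4.3.3) by quasi-likelihood with TMM scaling, without a replicate block, and p-values were adjusted by Benjamini-Hochberg over all genes. Events with a mean of at least 20 junction counts per library, and of at least 1 per form, were fitted likewise on inclusion and skipping counts with a term per library. The SE was taken as the log2 fold change over the square root of F, and a 95% interval is 1.96 SE on either side. A share with a count of 0 was limited by 3 counts. Exon lengths, loci and sequences are from GENCODE M21 (GRCm38), the build of the files. The scripts were tested on simulated data. Alternatives were DESeq2 1.42.0, library size scaling, no filter, other filters on events, PSI without length correction, the replicate block and leaving out each library. Junction counts totalled 6760349 to 7089670 per control library and 7153540 to 7939931 per L-DL KD library.

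The text names all 9 genes, the genes of each list past an adjusted p of 0.05 with up to 3 largest rises and 3 largest falls, the tested events at an unadjusted p below 0.05, the tested event of each gene with most junction counts, and the gene with the highest r to each of the 9. Other Vcan and Tnc events were added after their values were seen.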

Additional observations from a re-analysis of the deposited data

How the results depend on the processing

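Under the alternatives run, Tnc, Acan, Vcan, Tnr and Hapln1 kept their direction and passed the threshold. Leaving out each library in turn, 4 to 4 of the 9 genes were higher and 1 to 4 lower (3 with all libraries; 1 without control 3), hyaluronan genes gave 2 to 5 higher (2 without control 2) and 0 to 1 lower, chondroitin sulfate synthesis genes 3 to 7 higher and 3 to 5 lower, and ligands and receptors 2 to 5 lower. Over all genes, 1770 to 3236 were higher (1770 without control 3, 1795 without control 2) and 1676 to 3241 lower (1676, 1746 and 1728 without control 1, 2 and 3), and 1 to 2 events in these genes had an unadjusted p below 0.05. Direction turned for values near 0 when 1 library was left out: Ncan ran from -0.27 to 0.13 (log2 fold change), and the PSI differences ran from -0.0814 to 0.0586 (Vcan exon 7 against exon 8), -0.0176 to 0.000716 (Bcan exon 12), -0.00711 to 0.00692 (Bcan exon 9), -0.00878 to 0.00393 (Ncan exon 2), -0.0233 to 0.0259 (Tnr exon 3), -0.139 to 0.261 (Tnc exon 14 of Tnc-201) and -0.0857 to 0.142 (Vcan exon 8). Without length correction the difference of Tnc exon 14 of Tnc-203 was -0.234 in place of -0.378; the correction gives inclusion reads a lower weight. The other causes were not tested. Events with fewer reads than a stricter filter asks for gave no value there.

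Replicate numbers did not pair the libraries: deviations of same-numbered libraries correlated at 0.045, 0.115 and -0.092. With the replicate block, 4 of the 9 genes were higher and 3 lower, as without it, and 2311 genes in all were higher and 2324 lower. The splicing table carries no replicate numbers, so no blocked fit was run there.

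Depth limited Tnc splicing in control (15 or fewer junction reads per event over 3 libraries). Acan also had low counts in control (61 to 79 per library), but it passed the threshold under every alternative run.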

Other observations

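The spread between libraries was larger in L-DL KD than in control for 8 of the 9 genes, by the coefficient of variation of CPM, with Bcan as the exception. It was 47.2% against 16.5% for Acan, 28.8% against 7.98% for Ncan, 25.9% against 4.33% for Hapln4 and 18.1% against 4.97% for Tnr. The third L-DL KD library was the lowest of its group for 6 of the 9 genes (Bcan, Hapln1, Hapln4, Ncan, Ptprz1 and Tnr) and the highest for Acan.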
